A study of Mus musculus with 8 samples.

Results

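The 31 genes described here carry glucose into the cell, take it through glycolysis to lactate, and set the fate of the products. They were chosen by name: a gene belongs if its symbol in the deposited tables is on the list, and all 31 were found among the 18860 genes measured. They comprise the glucose transporters Slc2a1 and Slc2a3, the enzymes of the glycolytic chain with their isoenzymes, the lactate transporters Slc16a1 and Slc16a3, the regulators Pfkfb3, Pfkfb4 and Pdk1, the side-branch enzymes Pgm1, Pgm2, Bpgm and G6pdx, and Bnip3. The measurements are RNA sequencing of total RNA from leukaemia cells, collected from bone marrow when the C57BL/6 mice were moribund. In the 11B3-deleted group (n = 4 libraries) the genotype was 11B3fl/p53fl;shNf1;shMll3;Vav1-Cre, so that 1 chromosome 11 can lose the 11B3 interval and its partner carries floxed p53. The genotype of the p53-loss-only leukaemias (n = 4 libraries) was p53fl/fl;shNf1;shMll3;Vav1-Cre, with floxed p53 on both chromosomes. All 8 leukaemias therefore share Vav1-Cre, a recombinase under a promoter used by the blood lineages, together with hairpins that target Nf1, which restrains Ras, and Mll3, which methylates histone H3. The labels count lines per cohort without tying each to its own mouse, and p-values here cover the spread among libraries, which may be partly technical. The comparison sets loss of the whole 11B3 segment, p53 included, from 1 chromosome, with floxed p53 on the other, against loss of p53 alone.

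As background, glycolysis splits glucose into pyruvate and yields ATP without oxygen. Blood-forming cells carry several isoenzymes for some steps, such as hexokinase and phosphofructokinase, and these differ in affinity, regulation and the cell types that favour them. Hypoxia-inducible factor raises many of these genes when oxygen is low, and proliferating and leukaemic cells often convert much of their glucose to lactate.

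Recovered reads numbered 30591456 to 35719495 in each 11B3-deleted library and 30502718 to 33365364 in each p53-loss-only library. All 31 genes passed the filter of at least 10 normalised reads in at least 4 libraries, where normalised reads are the deposited read counts divided by a library size factor with 1 added. Trp53 itself had 189 to 392 normalised reads in the 11B3-deleted libraries and 300 to 577 in the p53-loss-only libraries, a level over the whole gene that does not check the loss of the floxed part. Of 73 tested genes between Sco1 and Alox12, the ends of the 11B3 interval, 71 had a lower mean log2 level in the 11B3-deleted group. The median difference of the 73 was -0.92 on the log2 scale. For 38 of them every 11B3-deleted library was below every p53-loss-only library, beside 1.23% of all tested genes. Even so, 0 of the 73 were called in the limma test described below, so the lack of a call there does not show equal levels. None of the 31 glycolysis genes lies in that interval. Eno3, on chromosome 11, is the closest, as the 15th tested gene beyond Alox12. The libraries also differed in markers of other cell types, none of which was called and none of which was at 0 reads in every library. The summed erythroid markers spanned 14979 to 231929 normalised reads in 11B3-deleted libraries and 3241 to 57173 in p53-loss-only libraries. The summed B cell markers spanned 523 to 55270 in 11B3-deleted libraries, with the highest sum in replicate 3, and 512 to 2724 in p53-loss-only libraries. Of the tested markers, 20 of 20 erythroid, 11 of 12 B cell, 11 of 11 stromal and endothelial, 7 of 10 megakaryocyte, 8 of 20 granulocyte, 7 of 18 monocyte and macrophage and 3 of 12 T and NK cell genes had a higher mean log2 level in the 11B3-deleted group. A mean log2 level gives weight to low libraries, and of the 20 erythroid genes 13 had a higher and 7 a lower arithmetic mean. All 11 leukaemia identity genes, among them Itgam, Csf1r and Mpo, were detected in every library, and 9 of them had a lower and 2 a higher mean log2 level in the 11B3-deleted group. In bulk samples, fewer cells of a type and less RNA per cell cannot be told apart. In relations added after the data were seen, each of the 31 members was set against the median of the erythroid, granulocyte, monocyte and macrophage, and cell cycle genes over the 8 libraries. With the erythroid median 1 member, Slc2a3, had an unadjusted exact permutation p under 0.05 (3.23%, beside 6.9% of all tested genes), with the granulocyte median none (beside 3.4%), and no member passed adjustment with a cell type list. The part of the B cell, T and NK cell, megakaryocyte and stromal markers in the values below was not tested.

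None of the 31 genes passed the test between the genotypes, which was limma on log2 values with Benjamini-Hochberg adjustment at 0.05 over all 14679 tested genes. Over all tested genes, 0.0136% were called, 2 genes in all and both lower. edgeR on recovered reads also called none of the members, against 0.00681% of all tested genes, and DESeq2 none, against 0.395%. The smallest adjusted p among members by limma was 0.996. At an unadjusted p under 0.05 stood 1 member, Bpgm, a share of 3.23% beside 3.56% of all tested genes, of which 2.38% stood there with a lower and 1.18% with a higher mean log2 level. The mean log2 level was lower in the 11B3-deleted group for 21 of 31 members, or 67.7%, beside 48.4% of all tested genes, and higher for 10, or 32.3%, beside 51.6%. On arithmetic means 18 members were lower and 13 higher, since Hk1, Gpi1 and Bnip3 change sides. The members' median difference was -0.08, beside 0.01 over all tested genes, and single members ran from -1.59 for Eno2 to 0.62 for Slc2a3. Standard errors ran from 0.16 to 0.77 on the log2 scale.

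**Figure D1:**
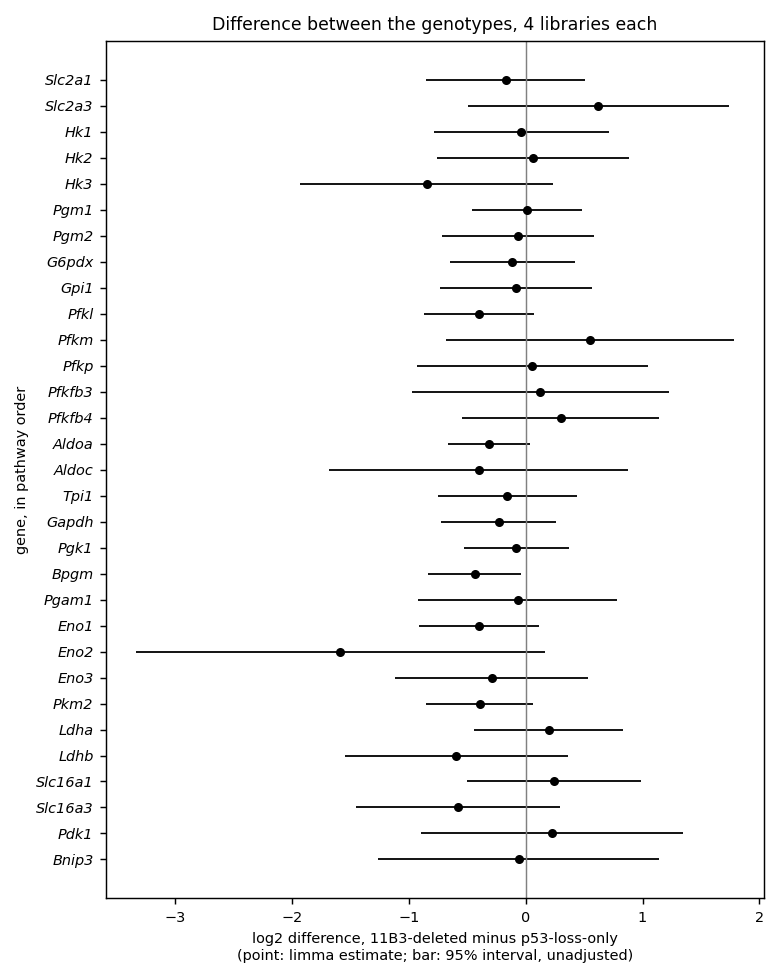
Differences between the genotypes for the 31 genes in pathway order. The x axis is the log2 difference, 11B3-deleted minus p53-loss-only; points are limma estimates from 4 libraries per group and bars are 95% intervals that are not adjusted for the number of genes. Only the interval of Bpgm, -0.83 to -0.04, leaves out 0.

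Levels varied widely between leukaemias of the same genotype. Within the 11B3-deleted group, replicate 2 stood apart: 23 of the 31 genes lay above their own mean over the 8 libraries there, and 10 had their highest value of all libraries. The median of the members, centred on each gene's mean, was -0.28, 0.23, -0.21 and -0.20 in 11B3-deleted replicates 1 to 4, and 0.06, 0.13, 0.09 and 0.16 in p53-loss-only replicates 1 to 4, on the log2 scale. The median over all tested genes stayed within -0.01 and 0.01 in every library. Thus 3 of the 4 11B3-deleted libraries were below every p53-loss-only library and replicate 2 was above them all. Without 11B3-deleted replicate 2, 10 members reached an unadjusted p under 0.05 by limma, and none passed adjustment (smallest adjusted p = 0.613). Of these, 9 had a lower mean log2 level (Slc16a3, Pkm2, Bpgm, Pfkl, Eno1, Bnip3, Gapdh, Slc2a1 and Aldoa), beside 4.41% of all tested genes, and Slc16a1 had a higher one, beside 3.56%. That library was picked for its values, so these counts describe the remaining 7 libraries and carry no test.

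**Figure D2:**
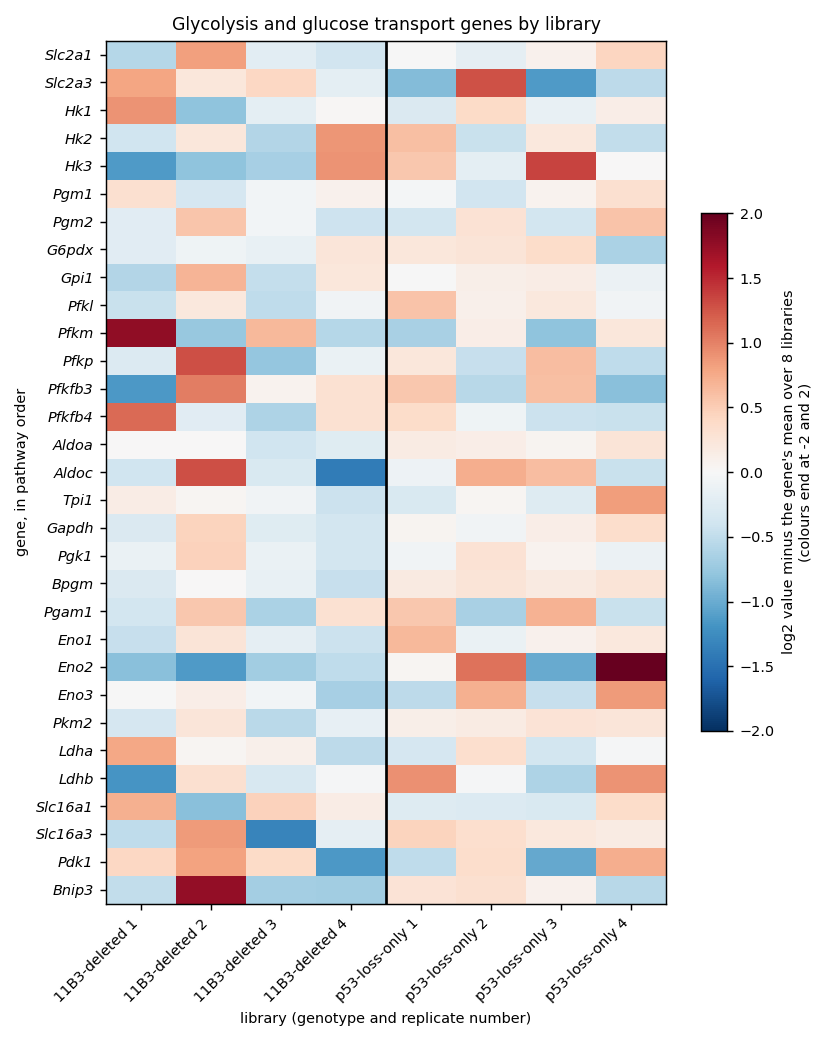
Level of each gene in each library, as log2 normalised reads minus the gene's mean over the 8 libraries; rows are genes in pathway order, columns are libraries, 11B3-deleted to the left of the line and p53-loss-only to the right. Red is above and blue below the gene's mean; 11B3-deleted replicate 2 is above it for 23 of 31 genes.

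Glucose enters through facilitative transporters. Slc2a1, the widely used basal transporter GLUT1, had 1167, 3065, 1501 and 1326 normalised reads in the 11B3-deleted libraries and 1725, 1536, 1848 and 2337 in the p53-loss-only libraries. Slc2a3, the high-affinity transporter GLUT3, had 1628, 1104, 1252 and 816.6 in the 11B3-deleted libraries and 515.6, 2270, 428.6 and 655.9 in the p53-loss-only libraries. For Slc2a3, 3 of the 4 p53-loss-only libraries were below all 11B3-deleted libraries, and p53-loss-only replicate 2 was above them all. The difference was 0.62 (SE 0.49) for Slc2a3 and -0.17 (SE 0.30) for Slc2a1 on the log2 scale, and neither passed the test. With each library left out in turn the difference lay between 0.35 and 1.15 for Slc2a3, the higher value being without p53-loss-only replicate 2, and between -0.47 (without 11B3-deleted replicate 2) and -0.0092 (without 11B3-deleted replicate 1) for Slc2a1. Slc2a3 ran with the erythroid median over the 8 libraries (r = 0.773, exact permutation p = 0.0241, adjusted p = 0.23; rho = 0.857, p = 0.0107, adjusted p = 0.155), and r was 0.578 without p53-loss-only replicates 3 and 4, where that median was lowest. Its erythroid relation did not pass the adjustment, and leaving out 11B3-deleted replicate 1 or 3 or p53-loss-only replicate 2 or 3 brought the unadjusted p above 0.05, to between 0.054 and 0.121 in the exact permutation test. Per kilobase of merged exon length, Slc2a1 made up 46.5% to 77.1% of the summed level of this pair in the 11B3-deleted libraries and 45.1% to 84.0% in the p53-loss-only libraries. Slc2a3 was thus the larger of the pair in 1 library of each genotype, 11B3-deleted replicate 1 and p53-loss-only replicate 2. Among 11 other hexose and monocarboxylate transporters tested, none was called. The mean log2 level was lower for 9 of them and higher for 2. Slc16a11 and Slc16a13, a pair of monocarboxylate transporter genes, lie in the 11B3 interval and differed by -1.57 (SE 0.57) and -1.24 (SE 0.53), each at an unadjusted p under 0.05. Slc16a11 was near the floor of detection, with 2.08 to 11.7 normalised reads in the 11B3-deleted libraries and 17.5 to 21.4 in the p53-loss-only libraries, so its fold is uncertain. Slc2a4, the insulin-responsive transporter GLUT4, also lies there, had 4.88 to 6.86 normalised reads in the 11B3-deleted libraries and 3.19 to 14.8 in the p53-loss-only libraries, and was too low to be tested.

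Hexokinases trap glucose in the cell as glucose 6-phosphate, and their makeup varied widely among the leukaemias. Hk1, the housekeeping form, had 11139, 3412, 5198 and 6060 normalised reads in the 11B3-deleted libraries and 4890, 7750, 5371 and 6503 in the p53-loss-only libraries. Hk2, an inducible form that binds mitochondria, had 2413, 3685, 2110 and 5842 in the 11B3-deleted libraries and 4775, 2336, 3657 and 2248 in the p53-loss-only libraries. Hk3, a form abundant in myeloid cells, had 2678, 3347, 3708 and 10981 in the 11B3-deleted libraries and 8505, 5122, 14963 and 5882 in the p53-loss-only libraries. For Hk3, 3 of the 4 11B3-deleted libraries were below all p53-loss-only libraries, and replicate 4 was inside their range. Its mean was 5178 ± 3892 in 11B3-deleted leukaemias and 8618 ± 4471 in p53-loss-only leukaemias (SD, n = 4 each), a difference of -0.85 on the log2 scale (SE 0.48) that did not pass the test (limma adjusted p = 0.996). Per length, Hk3 held 22.7%, 42.3%, 43.3% and 58.8% of the summed hexokinase level in the 11B3-deleted libraries and 57.7%, 43.1%, 71.7% and 50.2% in the p53-loss-only libraries. Hk1 was the leading hexokinase in 11B3-deleted replicate 1, at 65.2%, and in p53-loss-only replicate 2, at 45.1%, while Hk3 led in the other libraries. The Hk3 to Hk2 ratio gave the smallest p among 14 isoenzyme ratios compared. Its log2 value was 0.15, -0.14, 0.81 and 0.91 in the 11B3-deleted libraries and 0.83, 1.13, 2.03 and 1.39 in the p53-loss-only libraries, a difference of -0.91 (exact permutation test over 70 arrangements, two-sided, p = 0.0571, adjusted p = 0.7 over the 14 ratios). The smallest p that this design allows is 0.0286. Over the 8 libraries together, Hk3 and the median of the granulocyte markers gave no relation past the test (Pearson r = 0.12, exact permutation p = 0.765; Spearman rho = 0.31, p = 0.462; r = 0.58 without 11B3-deleted replicate 1 and p53-loss-only replicate 3). That median was -0.86, -0.06, 0.18 and 0.42 in the 11B3-deleted libraries and 0.35, 0.59, -0.70 and 0.18 in the p53-loss-only libraries, on the log2 scale around each gene's mean. The 11B3-deleted libraries stood in the same order for Hk3 and for the markers, whereas the p53-loss-only library with the highest Hk3 had the lowest marker median and the one with the lowest Hk3 the highest. The pooled value therefore joins opposite orders, and 4 libraries per genotype are too few for a correlation within each. With the median of the monocyte and macrophage markers, a relation added later, Hk3 gave r = 0.59 (exact permutation p = 0.128, adjusted p = 0.466). Its Spearman rho was 0.45 (exact permutation p = 0.267), and r was 0.72 without p53-loss-only replicates 1 and 4. That relation did not pass the test either.

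**Figure D3:**
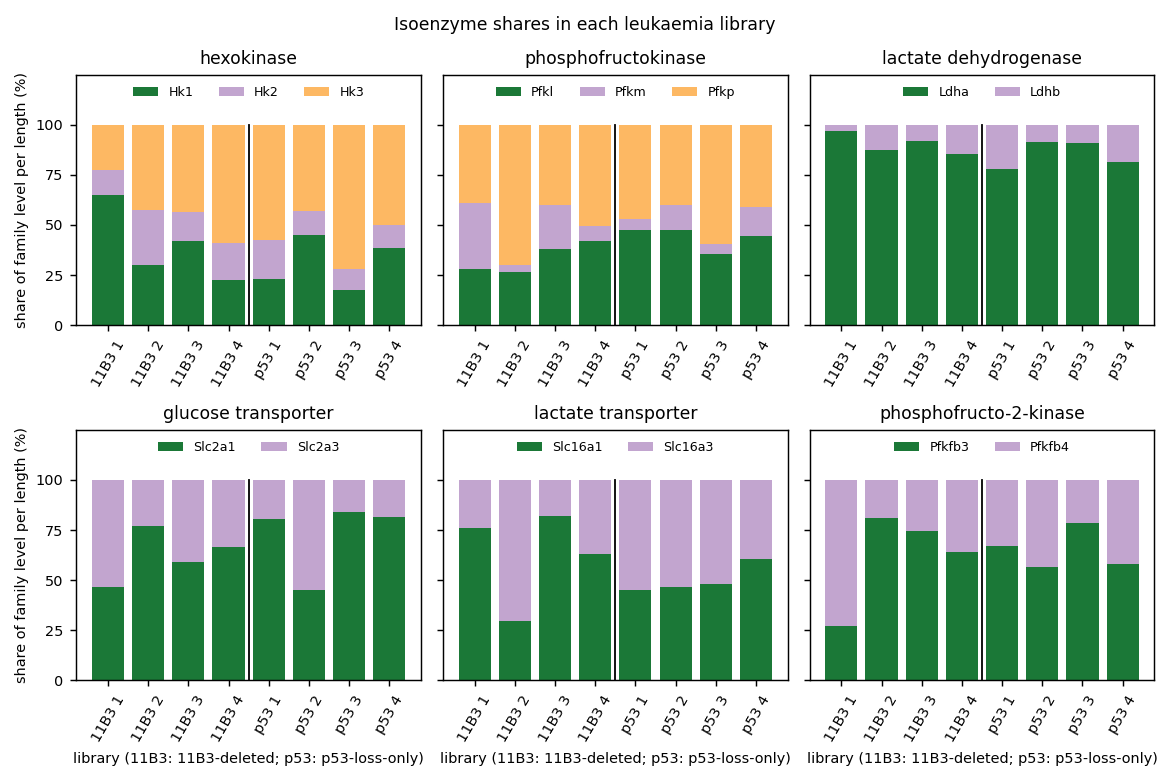
Makeup of 6 isoenzyme families in each library. Bars give each gene's share, in percent, of the family's summed normalised reads per kilobase of exon; the 11B3-deleted libraries stand left of the line in each panel and the p53-loss-only libraries right of it. Hk1 makes up 65.2% of hexokinase in 11B3-deleted replicate 1 and 17.8% in p53-loss-only replicate 3.

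At the next steps, Gpi1 turns glucose 6-phosphate into fructose 6-phosphate, and the phosphofructokinases commit it to glycolysis. Gpi1 had 30548, 74049, 32980 and 53787 normalised reads in the 11B3-deleted libraries and 45909, 50092, 51242 and 42558 in the p53-loss-only libraries. The p53-loss-only libraries lay close together, and the 11B3-deleted libraries lay on both sides of them. Pfkl, the liver-type subunit, had 3091, 4845, 2950 and 4002 in the 11B3-deleted libraries and 6197, 4501, 4829 and 3990 in the p53-loss-only libraries, a difference of -0.40 (SE 0.21) on the log2 scale. Pfkm, the muscle-type subunit, had 2967, 513.2, 1366 and 585.9 in the 11B3-deleted libraries and 556.4, 947.8, 494.4 and 1013 in the p53-loss-only libraries, a difference of 0.55 (SE 0.55), and of 0.05 without 11B3-deleted replicate 1. Pfkp, the platelet-type subunit, had 4974, 14742, 3547 and 5515 in the 11B3-deleted libraries and 7066, 4389, 9301 and 4241 in the p53-loss-only libraries. None of the subunits passed the test, and for each the groups overlapped. The subunits were high in different leukaemias: Pfkm was highest in 11B3-deleted replicate 1 and Pfkp in 11B3-deleted replicate 2, where Pfkm was second lowest of the 8. Per length, Pfkm made up 33.2% of the family in 11B3-deleted replicate 1 and 3.49% in replicate 2, so the Pfkp to Pfkm ratio differed 17.2-fold between these leukaemias of 1 genotype.

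Pfkfb3 and Pfkfb4 make and remove fructose 2,6-bisphosphate, the activator of phosphofructokinase. Pfkfb3 had 1390, 6248, 3244 and 3816 normalised reads in the 11B3-deleted libraries and 4459, 2098, 4668 and 1734 in the p53-loss-only libraries. Pfkfb4 had 2382, 924.3, 710.5 and 1342 in the 11B3-deleted libraries and 1397, 1023, 806.9 and 796.5 in the p53-loss-only libraries. Pfkfb3 was the larger of the pair per length in every library but 11B3-deleted replicate 1, where Pfkfb4 made up 73.1%. Differences between genotypes were 0.13 (SE 0.49) for Pfkfb3 and 0.30 (SE 0.37) for Pfkfb4 on the log2 scale.

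Aldolase, glyceraldehyde phosphate dehydrogenase and pyruvate kinase were among the most abundant transcripts of the 31 genes. Per length, the highest medians of these 31 over the 8 libraries were 25224 for Pkm2, 23810 for Gapdh, 16643 for Gpi1 and 14869 for Aldoa, in normalised reads per kilobase. Aldoa, which splits fructose 1,6-bisphosphate, had 26652, 26654, 20077 and 22414 normalised reads in the 11B3-deleted libraries and 29760, 29122, 27592 and 31633 in the p53-loss-only libraries. Every 11B3-deleted library was below every p53-loss-only library, as was also the case for Bpgm and for no other member. These 2 members are 6.45% of the list, beside 2.15% of all tested genes, of which 1.23% had their 11B3-deleted values wholly lower and 0.913% wholly higher. The mean of Aldoa was 23949 ± 3265 in 11B3-deleted leukaemias and 29527 ± 1673 in p53-loss-only leukaemias (SD, n = 4 each). Its difference of -0.31 on the log2 scale (SE 0.16, 95% interval -0.66 to 0.04) did not pass the test (limma adjusted p = 0.996), and the highest Aldoa value was 1.58 times the lowest, the narrowest range of the 31 genes. Aldoc, the brain-type aldolase, made up at most 0.588% of aldolase per length in any library.

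Bpgm makes 2,3-bisphosphoglycerate, the red cell effector that lowers haemoglobin's hold on oxygen. It had 580.9, 711.2, 640.7 and 514.0 normalised reads in the 11B3-deleted libraries and 796.3, 842.3, 801.5 and 847.6 in the p53-loss-only libraries. The groups did not overlap, and the p53-loss-only values lay close together. The mean was 612 ± 84.2 in 11B3-deleted leukaemias and 822 ± 26.8 in p53-loss-only leukaemias (SD, n = 4 each). The log2 difference was -0.44 with a standard error of 0.18 (limma, 95% interval -0.83 to -0.04, unadjusted p = 0.0349, adjusted p = 0.996). The erythroid markers had a higher mean log2 level in the 11B3-deleted group for all 20 tested genes, with none called, and a higher arithmetic mean for 13 of them. Over the 8 libraries Bpgm and the erythroid median gave r = -0.45 (exact permutation p = 0.263) and rho = -0.48 (p = 0.243), and r = -0.07 without p53-loss-only replicates 3 and 4.

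None of the remaining enzymes of this segment passed the test either. Tpi1, triosephosphate isomerase, ranged from 8493 to 12655 normalised reads in the 11B3-deleted libraries and from 9275 to 20337 in the p53-loss-only libraries. Gapdh, the dehydrogenase often used as a reference gene, had 29145, 48843, 30189 and 27614 in the 11B3-deleted libraries and 37228, 33966, 39074 and 45783 in the p53-loss-only libraries. Pgk1, an ATP-making kinase of the pathway, ranged from 3278 to 5844 in the 11B3-deleted libraries and from 3881 to 5181 in the p53-loss-only libraries. Gapdh in 11B3-deleted replicate 2 was the highest value in either group. Pgam1, phosphoglycerate mutase, ranged from 1652 to 3733 in the 11B3-deleted libraries and from 1624 to 4155 in the p53-loss-only libraries. Eno1, the ubiquitous enolase, had 16464, 27016, 19955 and 16680 in the 11B3-deleted libraries and 35156, 20458, 23993 and 26102 in the p53-loss-only libraries, a log2 difference of -0.40 (SE 0.23). Pkm2, the row for the pyruvate kinase gene now named Pkm, had 47324, 70537, 41173 and 53013 in the 11B3-deleted libraries and 64663, 66452, 71924 and 70255 in the p53-loss-only libraries, a log2 difference of -0.39 (SE 0.20). For Pkm2, 3 of the 4 11B3-deleted libraries were below all p53-loss-only libraries. The row counts the whole gene, so it does not tell the M1 from the M2 splice form.

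Eno1 made up 93.1% to 95.5% of enolase per length in the 11B3-deleted libraries and 91.0% to 97.6% in the p53-loss-only libraries. Eno3, the muscle enolase near the deleted interval, had 737.1, 814.6, 713.4 and 467.0 normalised reads in the 11B3-deleted libraries and 516.6, 1209, 537.2 and 1335 in the p53-loss-only libraries, a log2 difference of -0.29 (SE 0.37). Eno2, the neuronal enolase, had 18.6, 15.0, 20.4 and 23.2 in the 11B3-deleted libraries and 34.0, 69.8, 16.4 and 275.7 in the p53-loss-only libraries. Eno2 was near the floor of detection in most libraries and carried the widest spread of the 31 genes, 18.4-fold, mostly from p53-loss-only replicate 4. Its log2 difference of -1.59 (SE 0.77) did not pass the test. Pklr, the liver and red cell pyruvate kinase and no member of the list, had 2516, 31.1, 471 and 378 in the 11B3-deleted libraries and 146, 752, 12.0 and 15.9 in the p53-loss-only libraries, a log2 difference of 2.35 (SE 1.58). Its order over the 8 libraries was the same as that of the erythroid list median, which was 1.96, -0.59, 0.89 and 0.69 in the 11B3-deleted libraries and 0.51, 1.74, -3.18 and -1.70 in the p53-loss-only libraries on the log2 scale around each gene's mean. None of the 13 tested genes on a list of other glycolytic isoenzymes and related enzymes, Pklr included, was called, with 5 lower and 8 higher means. That list also holds enzymes outside glycolysis, such as Fbp1 (log2 difference 0.99, SE 0.88) and Galm (-0.49, SE 0.30). The split is therefore not one of glycolytic isoenzymes alone.

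Sequence shared with other genes limits how exactly some levels are known. Of the 50-base windows in the annotated transcripts, 82.5% for Gapdh, 72.2% for Eno1, 68.0% for Pgk1, 62.4% for Bnip3, 41.5% for Pgam1, 34.4% for Pkm2, 27.0% for Ldhb and 25.3% for Gpi1 also occur in another gene. Whether those other genes are pseudogenes was not counted. The handling of shared reads and of strand during counting is not given in the labels or processing notes, and the levels of these genes are uncertain. For Hk2, Hk3, Pfkm, Bpgm, Slc2a3, Slc16a1 and Slc16a3 no window was shared.

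Pyruvate leaves glycolysis as lactate through lactate dehydrogenase or enters mitochondria through the pyruvate dehydrogenase complex. Ldha, the subunit that favours lactate formation, had 31145, 18820, 19592 and 12633 normalised reads in the 11B3-deleted libraries and 14396, 22932, 14093 and 18011 in the p53-loss-only libraries. Ldhb, the subunit that favours the reverse reaction, had 667.8, 1879, 1209 and 1489 in the 11B3-deleted libraries and 2840, 1484, 982.4 and 2818 in the p53-loss-only libraries. Log2 differences were 0.20 (SE 0.28) for Ldha and -0.59 (SE 0.42) for Ldhb, and neither passed the test. Per length, Ldha made up 97.0%, 87.3%, 91.8% and 85.4% of the pair in the 11B3-deleted libraries and 77.7%, 91.4%, 90.8% and 81.5% in the p53-loss-only libraries. It was the larger subunit in every leukaemia, with the extremes in replicate 1 of each genotype. Pdk1 is a kinase that switches pyruvate dehydrogenase off. It had 1634, 2151, 1611 and 556.6 in the 11B3-deleted libraries and 869.1, 1568, 606.3 and 2035 in the p53-loss-only libraries. Its log2 difference was 0.23 (SE 0.50). Of 12 tested genes for pyruvate entry into mitochondria, or its control, 10 had a higher mean log2 level in the 11B3-deleted group. For 2 it was lower, the median difference was 0.25, and none was called. The list mixes the complex and pyruvate carriers with kinases that switch the complex off, and these kinases were all among the higher. Pdk4 (0.97, SE 0.65), near the floor of detection in some libraries, is such a kinase. The count therefore gives no direction for pyruvate entry. Dld, the lipoamide dehydrogenase of the complex, differed by 0.43 (SE 0.18) at an unadjusted p under 0.05, and Pdha1, a catalytic subunit of the same complex, by 0.29 (SE 0.17).

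**Figure D4:**
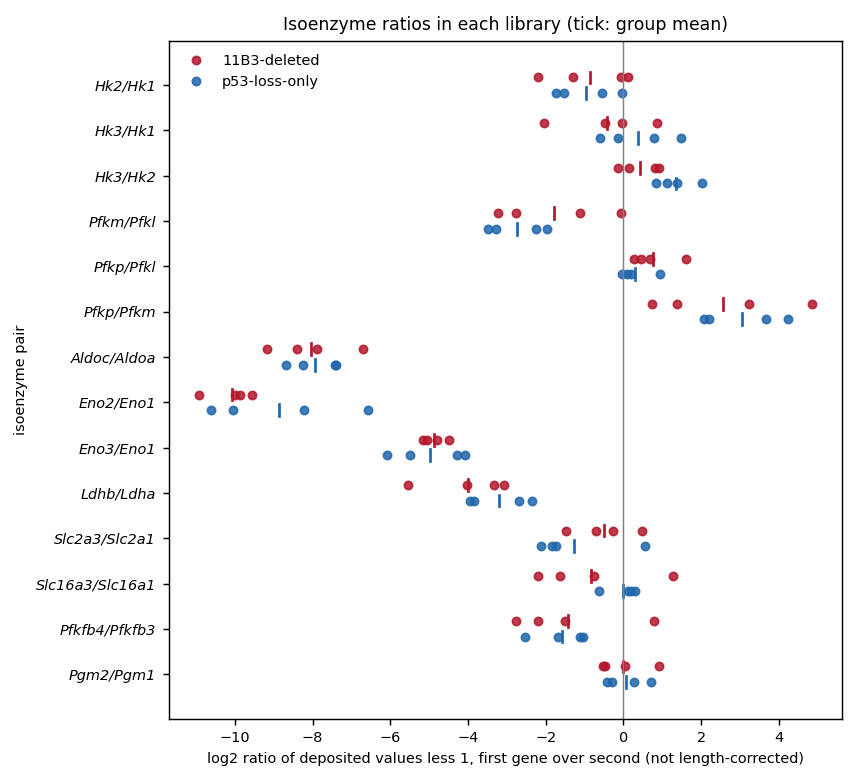
Log2 ratio of normalised reads (deposited values less 1) for 14 isoenzyme pairs, not corrected for length. Points are libraries, with the 11B3-deleted libraries in red above the p53-loss-only libraries in blue for each pair, and ticks are group means. The groups overlap for every pair, and the widest spread is that of Eno2 to Eno1, 20.3-fold over the 8 libraries.

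Lactate crosses the membrane with a proton through Slc16a1, the monocarboxylate transporter MCT1 found in most cells, and Slc16a3, MCT4, favoured by cells that export much lactate and raised by hypoxia-inducible factor in other cell types. Their promoters are shown because these genes ran opposite ways across the leukaemias. The sequences are the 250 bases upstream of the RefSeq start in build GRCm38.p6, on the gene's strand, and capitals mark ACGTG or GCGTG on either strand. That is the core of the hypoxia response element, and CACGTG, the E-box bound by Myc among others, contains ACGTG on both strands.
Slc16a1, chr3:104638414-104638663, plus strand: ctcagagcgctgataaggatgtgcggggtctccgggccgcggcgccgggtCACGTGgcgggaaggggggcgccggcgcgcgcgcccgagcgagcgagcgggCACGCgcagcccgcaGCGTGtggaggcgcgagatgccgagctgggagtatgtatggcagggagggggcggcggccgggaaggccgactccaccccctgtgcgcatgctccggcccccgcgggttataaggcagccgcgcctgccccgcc
Slc16a3, chr11:120948817-120949066, plus strand: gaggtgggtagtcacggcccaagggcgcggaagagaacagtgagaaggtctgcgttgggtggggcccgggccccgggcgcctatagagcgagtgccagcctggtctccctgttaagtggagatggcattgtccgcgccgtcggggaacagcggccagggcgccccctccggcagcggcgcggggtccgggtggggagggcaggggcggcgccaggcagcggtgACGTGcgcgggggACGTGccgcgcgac
The Slc16a1 window held 1 CACGTG, which gives its 2 matches to ACGTG, and 2 matches to GCGTG. The Slc16a3 window held 2 matches to ACGTG outside any CACGTG and none to GCGTG. The bases just after the RefSeq start were found in annotated transcripts of Slc16a3 but in none of Slc16a1. The start used for Slc16a1 therefore has no such check. Either core occurred in 34 of 43 RefSeq promoters of the members, or 79.1%, with 30 of 31 members matched to a promoter. It occurred in 54.2% of 12301 promoters of tested genes and in 38.6% of all 32851 promoters of the same length. These shares were not matched on base composition, which was 76.4% G and C in the Slc16a1 window, and a match is a description of letters, not of binding.

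Slc16a1 had 4945, 1682, 4132 and 3329 normalised reads in the 11B3-deleted libraries and 2505, 2487, 2433 and 3879 in the p53-loss-only libraries. Slc16a3 had 1591, 4047, 907.3 and 1984 in the 11B3-deleted libraries and 3064, 2841, 2617 and 2521 in the p53-loss-only libraries. For Slc16a3, 3 of the 4 11B3-deleted libraries were below all p53-loss-only libraries, while 11B3-deleted replicate 2 was above them all, and for Slc16a1 that same library was the lowest of the 8. Log2 differences were 0.24 (SE 0.33) for Slc16a1 and -0.58 (SE 0.39) for Slc16a3, and neither passed the test. With each library left out in turn they lay between 0.04 and 0.56 for Slc16a1, without 11B3-deleted replicates 1 and 2 in that order, and between -0.95 and -0.24 for Slc16a3, without 11B3-deleted replicates 2 and 3 in that order. Per length, Slc16a1 held 75.8%, 29.5%, 82.1% and 62.8% of the pair in the 11B3-deleted libraries and 45.1%, 46.8%, 48.3% and 60.7% in the p53-loss-only libraries. The log2 ratio of Slc16a3 to Slc16a1 differed by -0.82 between the genotypes (exact permutation p = 0.371). Without 11B3-deleted replicate 2 it differed by -1.52, with groups that did not overlap (exact permutation p = 0.0286, the smallest that 35 arrangements allow), before any adjustment and with that library picked for its values.

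Slc16a1 followed the cell cycle genes across the leukaemias. The cell cycle list of 27 tested genes, among them Ccnb1, Plk1 and Kif11, had a median of 0.50, -0.50, 0.40 and 0.05 in the 11B3-deleted libraries and -0.24, -0.10, -0.38 and 0.20 in the p53-loss-only libraries, on the log2 scale around each gene's mean. Slc16a1 gave r = 0.967 over the 8 libraries (exact permutation over 40320 pairings, p = 4.96e-05; adjusted p = 0.0303 over 58631 relations of all tested genes with 4 lists) and rho = 0.976 (p = 0.000397, adjusted p = 0.0597). It was 0.946 without 11B3-deleted replicates 1 and 2, and between 0.943 and 0.98 when each library was left out in turn. This was the only member called, 3.23% of the list, beside 1.24% of all tested genes, and 58 genes (0.396%) had an r at least as high. The rank correlation did not pass the adjustment. At an unadjusted p under 0.05 with the cell cycle list stood 11 of 31 members, or 35.5%, beside 31.3% of all tested genes, so the members as a whole were near the background. Pfkm also ran with the cell cycle median (r = 0.881, rho = 0.952, adjusted exact permutation p = 0.0948). Gpi1 (r = -0.890, adjusted p = 0.109), Pfkl (r = -0.860), Pfkp (r = -0.839), Slc16a3 (r = -0.831) and Bnip3 (r = -0.80) ran against it, none past the adjustment in the exact permutation test. These 5 members with r at or below -0.8 are 16.1% of the list, beside 8.01% of all tested genes, and 2 members at or above 0.8 are 6.45%, beside 10.7%. Pfkl also ran with the monocyte and macrophage markers (r = 0.894, rho = 0.881, adjusted exact permutation p = 0.113), with which 6 of 31 members, or 19.4%, had an unadjusted p under 0.05, beside 23.3% of all tested genes. The others of those 6 were Pgam1 (r = 0.816), Hk2 (r = 0.756), Pfkfb3 (r = 0.718), G6pdx (r = 0.715) and Pfkm (r = -0.754), none past the adjustment. Of 2 further relations, Hk2 with the cell cycle median gave r = -0.554 (exact permutation p = 0.155; rho = -0.524, p = 0.197) and Ldha with Pgk1 gave r = 0.251 (exact permutation p = 0.552; rho = 0.119, p = 0.793). The cell cycle list itself had a higher mean log2 level in the 11B3-deleted group for 24 of 27 genes, with none called. Whether cell cycle genes here mark more cycling cells or another mix of cells was not tested.

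**Figure D5:**
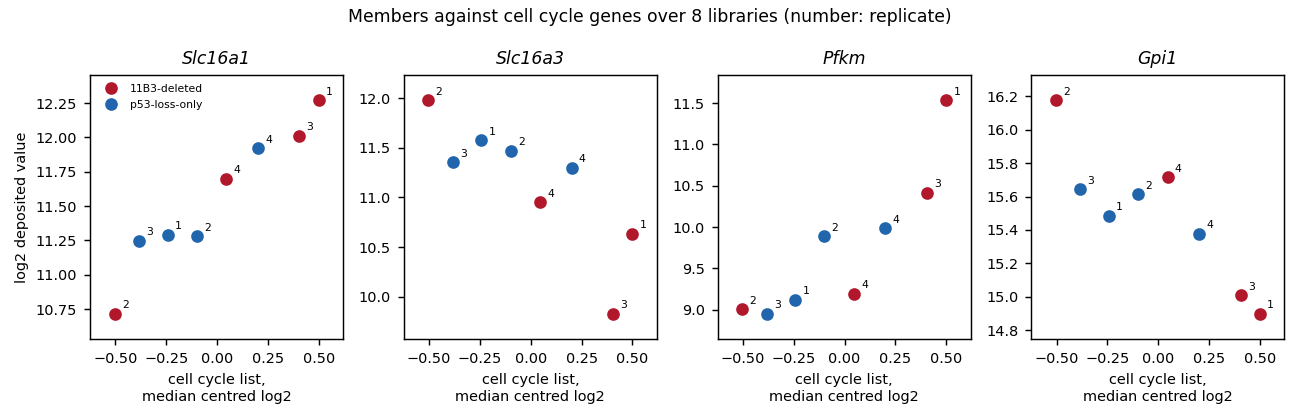
Level of Slc16a1, Slc16a3, Pfkm and Gpi1, as log2 normalised reads, against the median of the cell cycle genes in each library, as log2 values centred on each gene's mean. Each point is a library, labelled with its replicate number, red for 11B3-deleted and blue for p53-loss-only. Slc16a1 climbs with the cell cycle median from 11B3-deleted replicate 2 at the low end to 11B3-deleted replicate 1 at the high end (r = 0.967).

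Bnip3, a mitophagy receptor and a common target of hypoxia-inducible factor, was unequal among leukaemias of the 11B3-deleted genotype. It had 641.5, 3048, 567.1 and 556.6 normalised reads in the 11B3-deleted libraries and 1089, 1125, 961.6 and 615.4 in the p53-loss-only libraries. 11B3-deleted replicate 2 was above all other libraries, and the other 11B3-deleted libraries were below 3 of the 4 p53-loss-only libraries. The log2 difference was -0.06 (SE 0.53), and -0.65 without 11B3-deleted replicate 2. Its promoter is shown beside that of Gpi1, which was also highest in that library, with the same build and capitals. Both are among the 10 members highest there, and they were picked after the values were seen.
Bnip3, chr7:138909507-138909756, minus strand: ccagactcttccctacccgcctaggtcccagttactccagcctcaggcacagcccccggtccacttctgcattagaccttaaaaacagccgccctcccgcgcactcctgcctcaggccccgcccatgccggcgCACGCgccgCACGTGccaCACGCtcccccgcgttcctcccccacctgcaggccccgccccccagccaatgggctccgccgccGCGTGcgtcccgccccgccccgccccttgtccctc
Gpi1, chr7:34230337-34230586, minus strand: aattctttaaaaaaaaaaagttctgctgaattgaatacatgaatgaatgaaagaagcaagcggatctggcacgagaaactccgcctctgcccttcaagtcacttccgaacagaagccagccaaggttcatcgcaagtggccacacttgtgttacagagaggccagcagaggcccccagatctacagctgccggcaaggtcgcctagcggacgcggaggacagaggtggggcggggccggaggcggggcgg
The Bnip3 window held 1 CACGTG, which gives its 2 matches to ACGTG, and 3 matches to GCGTG. The Gpi1 window held 0 matches to either core, and G and C made up 55.2% of it, against 72.4% of the Bnip3 window. Of 24 other tested hypoxia response genes, 15 had a lower and 9 a higher mean log2 level in the 11B3-deleted group, 10 a lower and 14 a higher arithmetic mean, and none was called. Ak4, a mitochondrial adenylate kinase, had 27.4, 102, 44.6 and 98.6 normalised reads in the 11B3-deleted libraries and 7.80, 46.9, 8.68 and 9.52 in the p53-loss-only libraries. Its log2 difference of 2.17 (SE 0.69) had an unadjusted p under 0.05 and is uncertain, since 3 of the 4 p53-loss-only values were near the floor of detection. The list's median difference was -0.06, and its median level was -0.23, 0.60, -0.35 and 0.02 in the 11B3-deleted libraries and 0.06, -0.02, 0.11 and -0.04 in the p53-loss-only libraries, on the log2 scale around each gene's mean. The library with the highest Bnip3 thus had the highest hypoxia median too. Genes of the list did not all follow its median, as 2 chosen after their values were seen show. Egln3, an oxygen-sensing prolyl hydroxylase, had 1217, 7285, 1292 and 2590 in the 11B3-deleted libraries and 4005, 2795, 5003 and 3001 in the p53-loss-only libraries. Fam162a had 977, 534, 1232 and 766 in the 11B3-deleted libraries and 708, 797, 705 and 1182 in the p53-loss-only libraries. It was thus lowest of the 8 libraries in 11B3-deleted replicate 2, where Egln3 was highest. Pdk1, another target of the factor, gave no relation with Bnip3 past the test over the 8 libraries (r = 0.28, exact permutation p = 0.545; rho = 0.33, p = 0.428; r = -0.41 without 11B3-deleted replicate 2 and p53-loss-only replicate 2). Oxygen and handling of the samples were not recorded in the labels, and their part was not tested.

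Side branches leave glycolysis at glucose 6-phosphate. G6pdx, the entry enzyme of the pentose phosphate pathway, had 5937, 6546, 6256 and 8269 normalised reads in the 11B3-deleted libraries and 8136, 8351, 8995 and 4501 in the p53-loss-only libraries, a log2 difference of -0.11 (SE 0.24). Of 10 other tested genes of that pathway, 4 had a lower and 6 a higher mean log2 level, and none was called. Pgd, an NADPH-making enzyme of the pathway, had 16678, 16466, 15886 and 24741 in the 11B3-deleted libraries and 43332, 19956, 32167 and 27207 in the p53-loss-only libraries, a difference of -0.70 (SE 0.26). H6pd, the enzyme of the endoplasmic reticulum, differed by -0.71 (SE 0.31). Both had an unadjusted p under 0.05. Phosphoglucomutase links glycogen to glucose 6-phosphate. The names Pgm1 and Pgm2 are swapped between the deposited tables and the current annotation, in which the row Pgm1 is Pgm2 and the row Pgm2 is Pgm1. The row Pgm1 ranged from 1382 to 2183 in the 11B3-deleted libraries and from 1332 to 2179 in the p53-loss-only libraries. The row Pgm2 ranged from 1332 to 2606 in the 11B3-deleted libraries and from 1376 to 2650 in the p53-loss-only libraries. Their log2 differences were 0.01 (SE 0.21) and -0.07 (SE 0.29).

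Across all isoenzyme families, no ratio separated the genotypes. None of the 14 ratios reached an exact p under 0.05, the groups overlapped for each, and all adjusted p were 0.7 or above. The widest ratios over the 8 libraries were Eno2 to Eno1 at 20.3-fold, Pfkp to Pfkm at 17.2-fold, Pfkfb4 to Pfkfb3 and Hk3 to Hk1 at 11.6-fold, Slc16a3 to Slc16a1 at 11.0-fold, Pfkm to Pfkl at 10.7-fold and Ldhb to Ldha at 9.21-fold. With 4 libraries per group the 95% interval of the difference between genotypes ran from -0.66 to 0.04 on the log2 scale for Aldoa, the most even member, and from -3.34 to 0.16 for Eno2, the least even.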

How the data were processed

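Total RNA from 8 leukaemia libraries, 4 per genotype, was sequenced by the authors. STAR, HTSeq, DESeq and build mm9 are listed, per the submitters' processing notes, with neither roles nor versions. Each deposited table holds 1 signal value for each of 18860 genes. As the values themselves show, each deposited signal value is a read count divided by a library size factor with 1 added, and subtracting 1 and dividing by the library's step gave whole reads for 100% of values within a tolerance of 0.02. 3 reads correspond to deposited values of 3.66 to 4.29.

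The main test was limma 3.58.1 (R 4.3.3) on log2 deposited values with the variance trend fitted (group the sole term, two-sided), the 1 already in them serving as pseudocount, so that folds of low genes are understated. The 14679 genes that reached 10 in 4 or more libraries entered it, and p was adjusted over all of them by Benjamini-Hochberg at 0.05. Isoenzyme ratios used values less 1 and exact permutation tests. Alternatives were values rescaled with TMM factors, other filters, a constant of 5, edgeR 4.0.16 and DESeq2 1.42.0 on the recovered reads, the replicate number as a block, and each library left out. The test was tried on simulated data with known changes, all larger than the difference of any member. That trial therefore does not measure its power for differences of the size seen here. Levels per kilobase used merged exon lengths, and symbols and gene order came from GENCODE for GRCm38, a build other than mm9. Promoters came from RefSeq (GRCm38.p6). All 31 members are named. Of each other list up to 4 genes with the smallest p, and of marker lists also the most abundant, could be named. Egln3, Fam162a and Slc2a4 were named outside this rule after their values were seen. The members and lists were chosen with earlier results of these data known. Chi-square values of at least 94.4 per degree of freedom set every pair of libraries apart beyond sampling noise.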

Additional observations from a re-analysis of the deposited data

Results flagged for a closer look

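Of 90 groups of 4 libraries checked for a library far from the other 3, 6 (6.67%) were flagged. Chance flags about 1 in 20 where groups are independent and their values normally distributed. Read values were checked here without logs, and the ratios use the same genes again, so that rate is only a rough guide. Hk3 in 11B3-deleted replicate 4 had 10981 normalised reads, against 2678 to 3708 in the other 11B3-deleted libraries. Gapdh in 11B3-deleted replicate 2 had 48843, against 27614 to 30189 in the others of that group, and most of its windows are shared with other genes. Bnip3 in 11B3-deleted replicate 2 had 3047.5, against 556.6 to 641.5 in the others of that group. Slc16a1 in p53-loss-only replicate 4 had 3879.4, against 2433 to 2505 in the others of that group; that library also had the highest cell cycle median of its group, 0.20. Slc2a3 in p53-loss-only replicate 2 had 2269.8, against 428.6 to 655.9 in the others of that group, and its log2 ratio to Slc2a1 there was 0.56, against -2.11 to -1.74.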

How the results depend on the processing

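No member was called under any alternative. The number of genes called among all tested genes was 2 by limma, 1 with a minimum of 50, 1 with a constant of 5, 1 by edgeR, 58 by DESeq2, 0 with the replicate number as a block, and between 0 and 2 when each library was left out (0 without 11B3-deleted replicate 2). The replicate numbers do not pair the libraries: same-numbered libraries gave correlations of -0.03, -0.22, -0.41 and -0.24 over deviations from the group means. With the block, no member had an unadjusted p under 0.05, against 1 without it. Isoenzyme ratios with an exact permutation p under 0.05 numbered 0, and between 0 and 1 when each library was left out, the 1 being Slc16a3 to Slc16a1 without 11B3-deleted replicate 2. The median over all tested genes moved by at most 0.03 on the log2 scale.

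Differences that were not called changed sign for 14 members and 6 ratios under at least 1 alternative, and the cause was not tested. By edgeR the log2 difference was 0.057 for Hk1, 0.0008 for Gpi1, 0.33 for Bnip3 and -0.0017 for Pgm1, and by DESeq2 it was 0.074 for Hk1, 0.013 for Gpi1 and 0.35 for Bnip3. With each library left out, log2 differences ranged from -0.34 to 0.23 for Hk1, -0.22 to 0.27 for Hk2, -0.32 to 0.10 for Gpi1, -0.36 to 0.32 for Pfkp, -0.28 to 0.094 for Tpi1, -0.25 to 0.028 for Pgk1, -0.30 to 0.15 for Pgam1, -0.027 to 0.41 for Ldha, -0.076 to 0.65 for Pdk1, -0.65 to 0.17 for Bnip3, -0.19 to 0.53 for Pfkfb3, -0.030 to 0.55 for Pfkfb4, -0.11 to 0.13 for Pgm1 and -0.26 to 0.11 for Pgm2. Differences in log2 ratio ranged from -0.22 to 0.55 for Hk2 to Hk1, -1.26 to 0.11 for Pfkp to Pfkm, -0.54 to 0.28 for Aldoc to Aldoa, -0.26 to 0.41 for Eno3 to Eno1, -0.56 to 0.62 for Pfkfb4 to Pfkfb3 and -0.39 to 0.14 for Pgm2 to Pgm1. Of the 17 members that kept their sign with each library left out, the difference moved by over 1.5 times for 13, and for the other 4, Aldoa, Bpgm, Pfkl and Pkm2, it did not. Of 18 relations of members with a list median that had an unadjusted exact permutation p under 0.05, 6 stayed there in each of 10 alternatives, those of Slc16a1, Slc16a3, Gpi1, Pfkl, Pfkm and Pfkp with the cell cycle list, and 12 did not, among them Bnip3 with the cell cycle list (r = -0.78 without 11B3-deleted replicate 2, exact permutation p = 0.0619) and Pfkl with the monocyte and macrophage markers (r = 0.77 without p53-loss-only replicate 1, exact permutation p = 0.0514). All members but Eno2 and Aldoc had over 400 normalised reads in every library, so counting error weighs most on Eno2 and Aldoc.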
